A study of Homo sapiens with 21 samples.

Results

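Tagged HOXD13 in A375 melanoma cells lay partly on chromatin that was accessible but carried no listed acetylation of histone H3 lysine 27 (K27ac), and 5613 of its 29176 regions were of this kind (19.2%, 95% Wilson interval 18.8 to 19.7%). A region was chosen when it overlapped by at least 1 bp an ATAC region of A375-GFP and no K27ac region of A375-GFP, on the autosomes and the X chromosome. The chosen regions are called members here. The choice thus used 3 lists, those of HOXD13-HA, A375-GFP ATAC and A375-GFP K27ac, and their own values in these lists are a description with no test. The other HOXD13-HA regions were 4332 open and acetylated, 2151 acetylated but not open, and 17080 neither open nor acetylated in A375-GFP.

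The HOXD13-HA library came from A375 cells expressing HA-tagged HOXD13, and the ATAC and K27ac lists that sorted its regions came from A375 cells expressing GFP. No ATAC or K27ac list of the HOXD13-HA cells was used here, so openness and acetylation describe the sites in cells without the tagged protein. K27ac was also listed in A375 cells with the hairpins shH2 and shH3, 1 library each, and with shNTC, read here as the non-targeting control, in 2 replicates. ATAC and K27ac were each listed in 1 library of 501mel, SKMEL-5 and SKMEL-147, and CTCF in 1 library of 501mel and of SKMEL-5. All 4 are human melanoma cell lines, cultured for 72 h with or without 1 µg/ml doxycycline to induce the hairpins or the expressed proteins. The labels do not say which cells received doxycycline, what shH2 and shH3 target, or which libraries were ChIP-seq and which CUT&Tag. Region names in the 501mel ATAC list carry the tag siNTC, which the label of that library does not mention, and it is not stated whether those cells were given a control siRNA. The series as a whole concerns silencing and overexpression of HOXD13. Background of the HA antibody, from the HA library of A375-GFP, and the 5 IgG libraries were not analysed here. The 15 lists held 29176 (HOXD13-HA) to 163102 (SKMEL-147 ATAC) regions. Without read counts in them sequencing depth is unknown, and a site missing from a list is not shown to lack the mark. Of 7 melanoma line markers, 7 had an ATAC region and 4 (MITF, SOX10, PAX3 and PMEL) a K27ac region within 2 kb of a gene end in A375-GFP. Both kinds of region were also found at 2 of 4 keratinocyte markers (KRT5 and KRT14), 1 of 3 T cell markers (CD3E), 1 of 3 fibroblast markers (COL1A2) and 1 of 3 endothelial markers (PECAM1). Counting ATAC regions regardless of K27ac gave 3 of 3 fibroblast markers (DCN, LUM and COL1A2) and 2 of 3 endothelial markers (PECAM1 and CDH5). Openness at every marker was thus not particular to the melanoma markers. What this means for the cultures was not tested.

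HOXD13 is a homeobox transcription factor that patterns the digits and the distal limb. Homeodomain proteins of its paralogous group bind AT-rich sequences that contain CAATAAA or TCGTAAA. Acetylation of histone H3 at lysine 27 marks active enhancers and promoters, whereas ATAC-seq shows where a transposase can reach the DNA. Accessible sites without the mark include poised or inactive enhancers and sites held by the insulator protein CTCF, which anchors chromatin loops together with cohesin.

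The members were somewhat wider than HOXD13-HA regions in general and of similar fold, as the rule and the peak caller gave them. Their median width was 317 bp, from 165 to 1967 bp, against 298 bp over all HOXD13-HA regions. Fold enrichment over the caller's background, the authors' own value, ranged from 1.58 to 31.2 with a median of 3.77, close to the median of 3.93 over all HOXD13-HA regions. The median of the authors' −log10 q was 6.86 at members and 5.26 over all HOXD13-HA regions. The 5613 members lay in 5552 different ATAC regions. Of the members, 91.8% had the HOXD13-HA summit itself inside the ATAC region, and the median distance between the HOXD13-HA and ATAC summits was 74.0 bp, against 110.0 bp at open and acetylated sites. Where the rule divided regions, the nearest K27ac region touched 3 members with a gap of 0 bp, and these lay nearest to HEBP1, GSPT1 and JAG1, a Notch ligand gene. The regions nearest to PRKAG2, CDCA7 and SPESP1-NOX5 overlapped K27ac by 1 bp and were left out. In all, 151 members lay under 50 bp from a K27ac region, and 252 open HOXD13-HA regions overlapped one by under 50 bp.

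Promoters are the sites whose sequence was at hand, and 151 of the 5613 members overlapped a promoter window (2.69%, 2.30 to 3.15%), against 417 of all 29176 HOXD13-HA regions (1.43%). A member overlapped the promoter window of 112 of the 15812 protein-coding genes that have a window in the RefSeq table (GRCh38.p14, 250 bases before to 50 bases after the start). The 250 bases before the start of 4 of these genes follow, with each match, on either strand, to CAATAAA, to TCGTAAA or to the AP-1 letters TGANTCA in capitals. They were taken from the 6 genes whose window overlapped a member of highest fold. FGFBP1, a carrier of fibroblast growth factors, had the highest, IGF2BP3, an oncofetal mRNA-binding protein, was the one with K27ac in shNTC cells, PALLD, an actin-organising protein, was open in all 3 other lines, and PABPC4L had a CAATAAA match under the member.
FGFBP1: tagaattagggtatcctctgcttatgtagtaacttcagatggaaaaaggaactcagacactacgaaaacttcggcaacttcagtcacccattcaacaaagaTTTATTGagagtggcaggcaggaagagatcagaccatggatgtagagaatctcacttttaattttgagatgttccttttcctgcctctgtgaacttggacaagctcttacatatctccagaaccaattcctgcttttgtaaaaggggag
IGF2BP3: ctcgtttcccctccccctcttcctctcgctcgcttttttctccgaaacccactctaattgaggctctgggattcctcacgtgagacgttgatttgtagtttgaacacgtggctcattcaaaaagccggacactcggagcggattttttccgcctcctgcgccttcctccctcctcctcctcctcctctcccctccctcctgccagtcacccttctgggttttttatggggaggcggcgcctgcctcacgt
PALLD: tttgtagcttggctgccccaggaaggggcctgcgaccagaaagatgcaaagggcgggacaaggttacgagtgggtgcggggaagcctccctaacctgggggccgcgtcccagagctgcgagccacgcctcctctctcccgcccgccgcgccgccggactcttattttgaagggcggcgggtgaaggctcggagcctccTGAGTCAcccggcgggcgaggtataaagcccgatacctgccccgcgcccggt
PABPC4L: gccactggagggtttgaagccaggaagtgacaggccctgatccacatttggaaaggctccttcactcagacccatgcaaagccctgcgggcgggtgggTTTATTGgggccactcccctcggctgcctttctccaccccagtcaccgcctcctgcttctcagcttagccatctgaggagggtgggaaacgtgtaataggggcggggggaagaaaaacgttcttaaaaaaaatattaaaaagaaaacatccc
These stretches lie at chr4:15938741-15938990 (minus strand), chr7:23470492-23470741 (minus), chr4:168831845-168832094 (plus) and chr4:134201790-134202039 (minus). The member at FGFBP1 covered bases 203 to 250 of its stretch and had a fold of 10.9, and the match there (TTTATTG, the reverse complement of CAATAAA, at bases 102 to 108) lay outside the member. At IGF2BP3 the member covered the whole stretch with a fold of 8.87, with none of the letters searched. The AP-1 letters of PALLD, at bases 199 to 205, lay outside its member, which covered bases 1 to 134 with a fold of 8.35. At PABPC4L the match at bases 99 to 105 lay within the member, which covered bases 1 to 168 with a fold of 7.81, and 22 bases beyond its summit.

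Over all 174 promoter windows that a member overlapped, 24 held CAATAAA (13.8%, 9.45 to 19.7%), and in 19 of these a match lay inside the member. In open promoter windows without K27ac and without HOXD13-HA, 125 of 5822 held the letters (2.15%, 1.81 to 2.55%), and 4.00% of all 34961 windows did. TCGTAAA stood in 5 of the 174 windows (2.87%), always inside the member, against 0.481% of the open windows without HOXD13-HA. The AP-1 letters TGANTCA stood in 35 of the 174 (20.1%, 14.8 to 26.7%) and in 6.01% of the open windows without HOXD13-HA. A CTCF core motif stood in 1 of the 174 and in 3.98% of the open windows without HOXD13-HA. The 468 windows overlapped by any HOXD13-HA region held CAATAAA in 14.7% of cases (11.8 to 18.2%), TCGTAAA in 3.21%, the AP-1 letters in 16.5% (13.4 to 20.1%) and the CTCF core in 1.28%, and the intervals at the members include each of these shares. Base composition moved with these shares, since the median GC content was 52.0% in the windows at members, 65.0% in the open windows without HOXD13-HA and 58.7% in all windows, and its part in them was not tested. Matches of 2 different motifs overlapped in 0 of the 174 windows, and a match is a description of these windows, not a site.

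K27ac was listed at part of the members in the shNTC libraries of the same cell line. Its absence in A375-GFP was fixed by the rule, so this is no measured difference between libraries. The A375-GFP K27ac list held 139985 regions, and the shNTC lists 85977 and 80242. Of the 5613 members, without K27ac in A375-GFP by the rule, 2199 (39.2%, 37.9 to 40.5%) were acetylated in shNTC replicate 1 and 2031 (36.2%, 34.9 to 37.5%) in replicate 2. Over all HOXD13-HA regions these shares were 28.0% and 26.9%. Both replicates listed 1806 members (32.2%, 31.0 to 33.4%), against 24.9% of all HOXD13-HA regions, 86.3% of the open and acetylated ones, 53.1% of those acetylated and not open and 3.32% of those that were neither. The difference from all HOXD13-HA regions depended on list length: with the members chosen as before and the shNTC lists held to their 42115 regions of highest −log10 q, 19.8% of the members and 18.7% of all HOXD13-HA regions lay in both replicates. Among the shNTC regions, those at members were of medium strength. The K27ac region over a member stood at a median percentile of 58.9 by −log10 q in replicate 1 and 60.5 in replicate 2, while those over open and acetylated sites stood at 81.3 and 80.6.

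**Figure D1:**
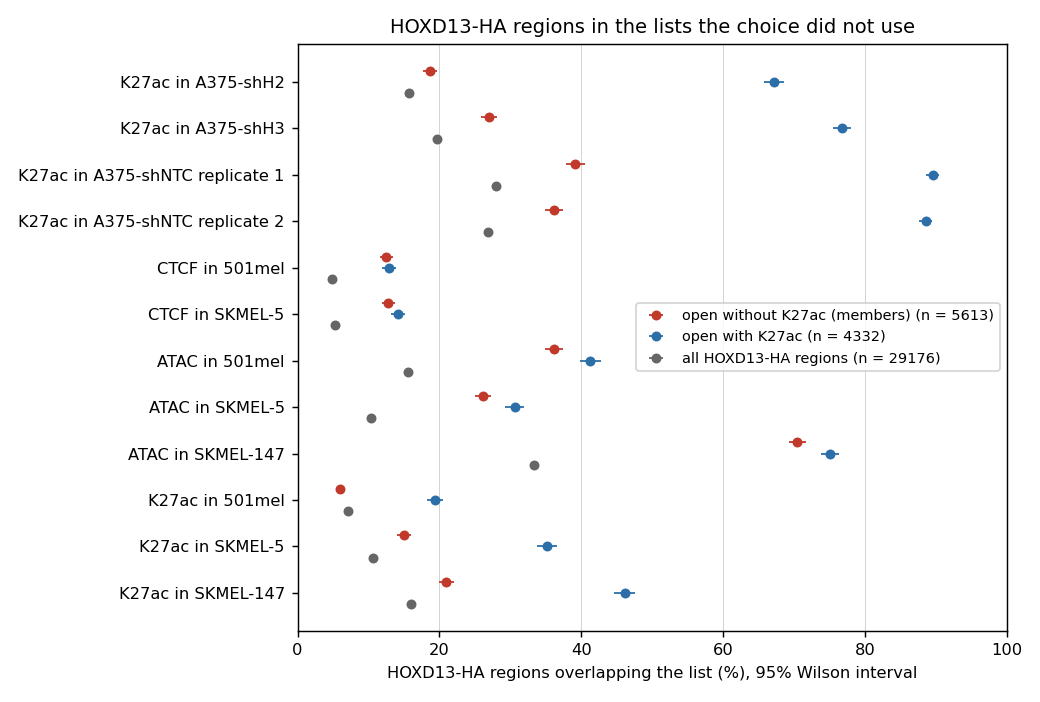
Share of HOXD13-HA regions overlapping each list that did not choose the members, in percent with 95% Wilson intervals, for members (5613 regions), open and acetylated regions (4332) and all HOXD13-HA regions (29176). Members stand well below the open and acetylated regions in every K27ac list (39.2% against 89.6% in shNTC replicate 1) and near them in both CTCF lists (12.5% against 12.9% in 501mel).

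Distance to K27ac of A375-GFP went with this share. The gap from a member to the nearest A375-GFP K27ac region had a median of 16302 bp, and 428 members (7.63%) had such a region within 1 kb on both sides, 950 on 1 side and 4235 on neither. Of the members flanked on both sides 76.9% (72.6 to 80.6%) lay in both shNTC replicates, of those flanked on 1 side 53.8% and of the rest 22.8% (21.6 to 24.1%). The 24.9% of all HOXD13-HA regions includes regions acetylated in A375-GFP at any distance, so it is no like background for this 22.8%. Members under 100 bp from K27ac lay in both replicates in 72.4% of cases (226 of 312), and members at least 100 kb away in 15.8% (133 of 842). At the same gaps, HOXD13-HA regions that were neither open nor acetylated lay in both replicates in 22.4% (28 of 125) and 1.32% of cases. CTCF in 501mel or SKMEL-5 overlapped 36.2% of the members flanked on both sides and 14.4% of those with no flank.

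**Figure D2:**
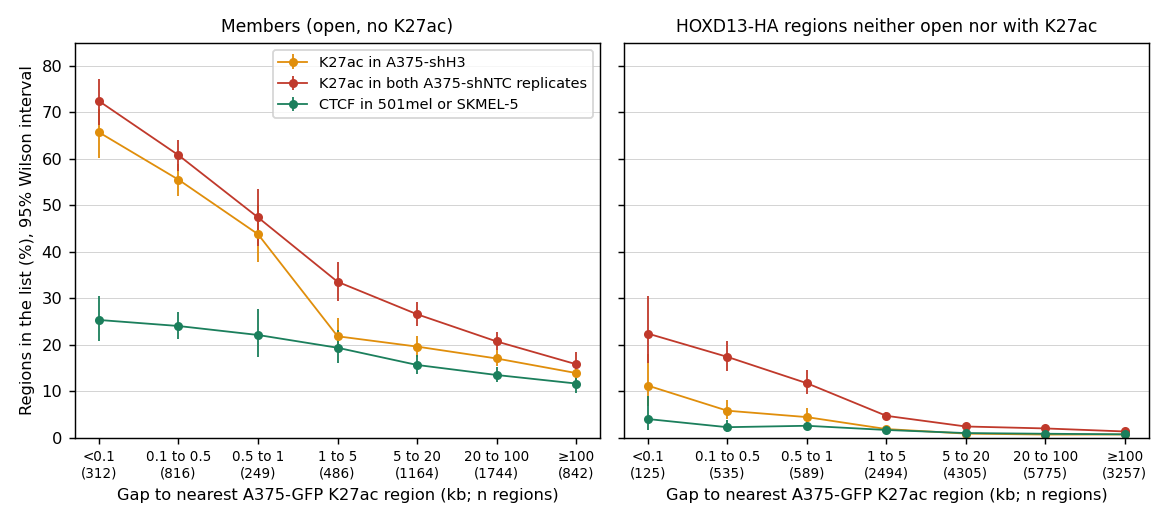
Share of members (left) and of HOXD13-HA regions neither open nor acetylated (right) with K27ac in shH3, K27ac in both shNTC replicates, or CTCF in 501mel or SKMEL-5, in percent with 95% Wilson intervals, by the gap to the nearest A375-GFP K27ac region. Among members the share in both shNTC replicates was 72.4% under 100 bp and 15.8% at 100 kb or more, and on the right it was 22.4% and 1.32%.

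The members with the strongest K27ac in shNTC cells lay close to A375-GFP K27ac regions. The 10 highest by −log10 q had gaps of 31 to 367 bp, and 9 of the 10 were also listed in shH2 and 10 in shH3. The first, chr20:37178071-37178481 near an end of MROH8, had K27ac folds of 28.3 in shH2, 33.5 in shH3 and 65.6 and 57.4 in the shNTC replicates, although its HOXD13-HA fold was 2.56. The member at chr1:153490417-153490692, nearest to S100A7, a calcium-binding protein of inflamed skin, had folds of 10.5 in shH2, 9.20 in shH3, and 57.8 and 53.9 in shNTC. At the IGF2BP3 promoter, whose sequence stands above, the K27ac folds were 9.52 in shH2, 13.3 in shH3, and 31.1 and 29.0 in shNTC. Folds of different libraries depend on their depth and are not compared here. Further members of these 10 were nearest to GPRC5A, a retinoic acid-induced receptor, SERINC3, C11orf91, AGMO, BTBD3, GSDMC and MAT2B, the last 2 at 388587 and 1081052 bp.

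The hairpin libraries listed K27ac at fewer members. In shH2 1047 members (18.7%, 17.7 to 19.7%) were acetylated and in shH3 1515 (26.99%, 25.8 to 28.2%), where all HOXD13-HA regions gave 15.7% and 19.6%. Of the 1806 members acetylated in both shNTC replicates, 842 (46.6%) were listed in shH2 and 1064 (58.9%) in shH3, and 1258 (69.7%, 67.5 to 71.7%) in at least 1 of them. Over all HOXD13-HA regions in both shNTC replicates the last share was 75.0%, and at open and acetylated ones 89.2%. The remaining 548 members (30.3%) were in neither hairpin list. The hairpin lists were shorter, 43634 and 51838 regions against 85977 and 80242 in shNTC, and with the hairpin and shNTC lists each held to 42115 regions, 77.6% of the members and 82.6% of all such HOXD13-HA regions were in a hairpin list. In the other direction, 49 members (0.873%, 0.661 to 1.15%) lay in both hairpin lists and in neither shNTC list, against 0.291% of all HOXD13-HA regions. No test was made of these differences between hairpin and shNTC cells, since the lists hold no counts and each hairpin has 1 library.

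CTCF overlapped the members about as often as the open and acetylated sites. In 501mel 702 members (12.5%, 11.7 to 13.4%) held a CTCF region and in SKMEL-5 719 (12.8%, 12.0 to 13.7%), against 4.85% and 5.22% of all HOXD13-HA regions. Both lines listed CTCF at 482 members (8.59%, 7.88 to 9.35%; all HOXD13-HA regions 3.24%), and at least 1 line at 939 (16.7%, 15.8 to 17.7%; all regions 6.84%). The share with at least 1 was 18.4% at open and acetylated sites and 1.09% at sites neither open nor acetylated. CTCF was not listed in A375, so its presence in the cells that chose the members is unknown. The HOXD13-HA summit lay a median of 82.5 bp from the CTCF summit of 501mel and 92.0 bp from that of SKMEL-5, and 31.6% and 30.0% of the pairs lay within 50 bp. At open and acetylated sites the medians were 110.0 and 122.5 bp.

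Members with CTCF were open in more melanoma lines. Of the 482 with CTCF in both lines 311 (64.5%, 60.2 to 68.7%) were open in all 3 other lines, whereas 478 of the 4674 without CTCF (10.2%, 9.39 to 11.1%) were. Open and acetylated in at least 1 other line were 48.5% of the members with CTCF in both lines and 24.7% of those without. For K27ac in both shNTC replicates the shares were closer, 37.8% (33.5 to 42.2%) and 30.7% (29.4 to 32.0%). Both CTCF lists come from lines that also gave ATAC lists, so the overlap with openness in 501mel and SKMEL-5 shares cells, while that in SKMEL-147 does not. Both marks also rose with ATAC strength in A375-GFP ATAC regions without K27ac. From the weakest to the strongest of 10 classes, CTCF in at least 1 line went from 3.35 to 32.7% with HOXD13-HA and from 11.9 to 53.0% without. Openness in all 3 other lines went from 2.87 to 50.7% and from 2.23 to 68.7%. The part of ATAC strength in the split by CTCF was not tested.

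**Figure D3:**
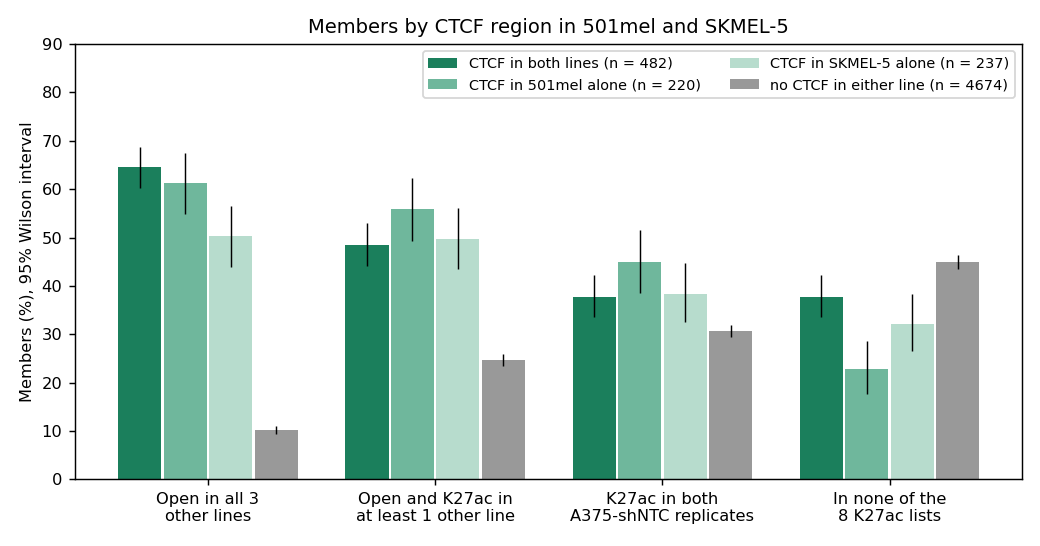
Members split by CTCF regions of 501mel and SKMEL-5 (both lines, 501mel alone, SKMEL-5 alone, neither line): bars give the share of members, in percent with 95% Wilson intervals, that were open in all 3 other lines, open and acetylated in at least 1 of them, in both A375-shNTC K27ac lists, or in none of the 8 K27ac lists. The largest separation is in openness across lines, 64.5% with CTCF in both lines against 10.2% without CTCF.

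Among members with CTCF in both lines, the highest HOXD13-HA fold was 20.2 at chr4:90246003-90247126, inside CCSER1. This member was open in 501mel, SKMEL-5 and SKMEL-147 and acetylated in 501mel and SKMEL-5, but was listed in none of the A375 K27ac libraries. Next was chr20:4014005-4014770 near an end of RNF24, with a fold of 10.0, at 230 bp from A375-GFP K27ac and acetylated in SKMEL-5. The strongest CTCF among these 10 was at chr6:16331339-16331610 inside ATXN1, the gene of a polyglutamine ataxia, with CTCF folds of 36.9 in 501mel and 68.6 in SKMEL-5 and no K27ac in any list. The member at IGF2BP3 was also among the 10, and the others lay in LHFPL3, FBLN1, which encodes an extracellular matrix protein, and CPNE4, or nearest to RCBTB2, AGTPBP1 and RASEF. The members at IGF2BP3 and nearest to RCBTB2 were the 2 of these 10 with K27ac in both shNTC replicates. All 10 were open in 501mel and SKMEL-147, and 5 of them in SKMEL-5.

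Open chromatin of A375-GFP without K27ac gave the comparison in which openness and lack of acetylation were shared. HOXD13-HA overlapped 4788 of these 74224 ATAC regions (6.45%). Here the whole ATAC region had to lack K27ac, so some ATAC regions under members were left out, those that touched K27ac beyond the member. K27ac in both shNTC replicates overlapped 1537 of the 4788 (32.1%, 30.8 to 33.4%) and 15.9% of the 69436 without HOXD13-HA, with 17.0% over both together. CTCF in at least 1 line overlapped 767 of the 4788 (16.0%, 15.0 to 17.1%) and 32.8% of those without HOXD13-HA, with 31.8% over both. With the regions split into 10 classes of the authors' ATAC −log10 q, the shNTC share was higher with HOXD13-HA in 10 of 10 classes and the CTCF share lower in 10 of 10, each time with intervals that did not overlap. In the strongest class the shNTC share was 59.9% with and 49.7% without HOXD13-HA, and the CTCF share 32.7% with and 53.0% without. Within 1 kb of A375-GFP K27ac, 65.7% of the ATAC regions with HOXD13-HA and 42.8% of those without it were acetylated in both shNTC replicates, and farther away 27.1% and 13.3%. The difference thus stood on both sides of that distance. With the shNTC lists held to 42115 regions, the difference in shNTC K27ac was 8.36 percentage points, against 16.2 points with the lists as deposited. Openness in all 3 other lines was 18.0% with HOXD13-HA and 22.8% without, with the interval lower in 8 of the 10 classes, and 4.57% with and 10.9% without lay near a gene end. Regions of 1 library are not independent samples, and the intervals cover counting error only.

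**Figure D4:**
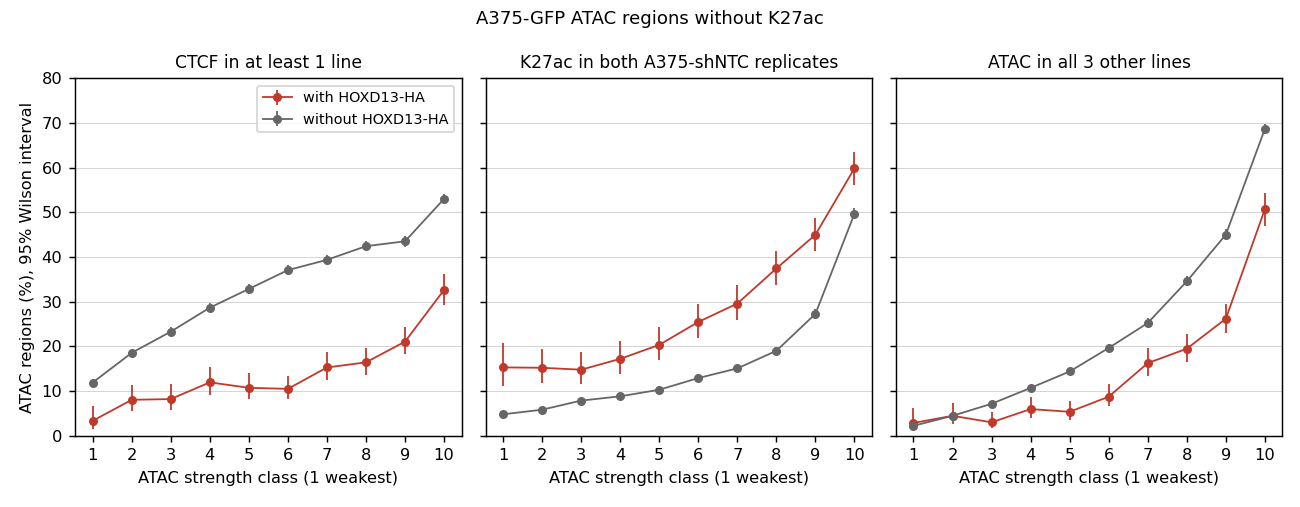
A375-GFP ATAC regions without K27ac, with HOXD13-HA (4788 regions) and without it (69436), in 10 classes of ATAC −log10 q from weakest to strongest: share with CTCF in 501mel or SKMEL-5, with K27ac in both A375-shNTC replicates, and open in all 3 other lines, in percent with 95% Wilson intervals. Regions with HOXD13-HA lie below the others for CTCF and above them for shNTC K27ac in all 10 classes.

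Most members were open in another melanoma line, and SKMEL-147 held the largest share. ATAC regions overlapped 2028 members in 501mel (36.1%; all HOXD13-HA regions 15.6%), 1466 in SKMEL-5 (26.1%; 10.3%) and 3954 in SKMEL-147 (70.4%; 33.3%). Members are open in A375-GFP by the rule, whereas most HOXD13-HA regions are not. The HOXD13-HA regions open and acetylated in A375-GFP gave higher shares than the members, 41.3%, 30.6% and 75.1% in the same order. In all 3 lines 21.7% of them were open. The 3 ATAC lists held 104442, 56333 and 163102 regions, and the order of the 3 shares is that of list length. Open in none of the 3 were 1222 members (21.8%), in 1 line 2377, in 2 lines 971 and in all 3 lines 1043 (18.6%; all HOXD13-HA regions 6.96%). The largest single pattern was openness in SKMEL-147 alone, with 2104 members (37.5%).

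Acetylation was rarer than openness at the members in each of the other lines. K27ac overlapped 334 members in 501mel (5.95%, 5.36 to 6.60%; all HOXD13-HA regions 7.06%), 841 in SKMEL-5 (15.0%; 10.7%) and 1178 in SKMEL-147 (21.0%; 16.0%). Of the members open in a line, 13.6% were acetylated in 501mel, 43.9% in SKMEL-5 and 28.7% in SKMEL-147, against 24.6%, 55.7% and 37.3% of all HOXD13-HA regions open in that line. Openness and acetylation in the same line, in at least 1 of the 3, were found at 1628 members (29.0%, 27.8 to 30.2%; all HOXD13-HA regions 16.9%), and in all 3 lines at 62 (1.10%; 0.980%). K27ac regardless of openness was listed in at least 1 of the 3 at 1798 members (32.0%; 24.1%) and in all 3 at 88 (1.57%; 2.14%). HOXD13-HA regions open and acetylated in A375-GFP stood above the members. Of them, 56.2% were open and acetylated in the same other line and 65.0% had K27ac in at least 1 other line. At least 1 K27ac list other than A375-GFP held 95.7% of them. The A375-GFP list holds no member by the rule, and at least 1 of the other 7 K27ac lists held 3207 members (57.1%, 55.8 to 58.4%; all HOXD13-HA regions 38.0%). The other 2406 members (42.9%, 41.6 to 44.2%) were thus in none of the 8 lists. Of these, 244 were open in all 3 other lines and 791 in none of them.

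Both ends of this range had named examples. Of the 62 members open and acetylated in all 3 other lines, the highest HOXD13-HA fold was 11.5 at chr1:219548839-219550247, nearest to ZC3H11B, which was in no A375 K27ac list. The next, near an end of ABCB4, a phospholipid transporter of bile, had a fold of 8.47 and was acetylated in shH3 and both shNTC replicates. Others lay in ROBO1, a receptor for SLIT guidance proteins, in KAT2B, a histone acetyltransferase gene, and in HERC3, UBE2U, KCNQ5 and PTTG1IP, or nearest to PTH2R and KIRREL3, and 8 of the 10 were in both shNTC lists. Of the 244 members open in all 3 other lines and in no K27ac list, the highest fold was 13.5 at chr17:41602003-41603132, between genes at 6645 bp from KRT16, a keratin of activated epidermis, and 15107 bp from KRT14. TGFB2, an immunosuppressive cytokine, held the ninth of these, at chr1:218377330-218377583 inside the gene, with a fold of 8.16 and a −log10 q of 92.5. Between them stood members in C3orf70, NPFFR1, GALNT11 and CPNE4 and members nearest to PRAG1, DOCK11 and RASEF, and the tenth lay nearest to LNPK.

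Of the 10 members with the highest HOXD13-HA fold 6 were open in SKMEL-147, none was acetylated in shH2, 1 was in shH3 and 3 were in both shNTC replicates. The highest, 31.2 at chr13:103429796-103431062, lay 363378 bp from SLC10A2, the ileal bile acid transporter, and was open in A375-GFP alone. That nearest to MMP10, a matrix metalloproteinase, at chr11:102783385-102784624 and 2756 bp away, had a fold of 18.1 and K27ac folds of 4.09 and 3.63 in the shNTC replicates, with no region in shH2 or shH3. The member inside TNR, a neural extracellular matrix protein, had a fold of 16.3 and the same K27ac pattern, with K27ac folds of 5.14 and 4.35. Inside BTBD9, a member 58 bp from A375-GFP K27ac had a fold of 17.9 and was acetylated in shH3 and both shNTC replicates. PBX3, a homeobox partner of HOX proteins, lay 81317 bp from a member with a fold of 18.6. CAMTA1, KCNN2, a potassium channel, DPYSL2, a protein of axon growth, CCSER1 and PTGR3 completed the 10.

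Members of low HOXD13-HA fold held these marks more often than those of high fold. The fold is a ratio to the caller's background, and no shares by fold are given here for the other HOXD13-HA regions. With the members in 5 equal classes of HOXD13-HA fold, those of the lowest class (1.58 to 2.86) had the marks most often: 40.7% (37.9 to 43.6%) were in both shNTC replicates, 23.6% (21.2 to 26.2%) had CTCF in at least 1 line and 28.3% were open in all 3 other lines. In the highest class (5.32 to 31.2) the shares were 26.9% (24.4 to 29.6%), 12.2% (10.4 to 14.2%) and 13.5%. K27ac in at least 1 other line stood at 42.0% in the lowest and 27.5% in the highest class.

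Members lay between genes more often than HOXD13-HA regions in general. Of the midpoints 2984 (53.2%, 51.9 to 54.5%) lay between genes and 2318 (41.3%) in a gene, against 47.6% and 46.9% of all HOXD13-HA regions. Near a gene end, within 2 kb, were 311 (5.54%, 4.97 to 6.17%), close to the 5.51% over all HOXD13-HA regions and below the 10.1% at open and acetylated ones. Of the members at least 1 kb from A375-GFP K27ac, 4.56% were near a gene end. Members near a gene end held CTCF in at least 1 line in 30.9% (26.0 to 36.2%) of cases, those in genes in 16.9% and those between genes in 15.1%. The gene table gives no exons and no strand, so exons, introns and UTRs were not told apart.

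A member lay within 50 kb of 4331 of 19974 protein-coding genes (21.7%), and any HOXD13-HA region within 50 kb of 60.2%. Genes with the most members were long ones, of 368 to 2058 kb, where the median gene spans 24.2 kb. GPC6, a glypican of the cell surface, had 13 members with HOXD13-HA folds of 2.28 to 5.73, and 2 of them were in both shNTC lists. MACROD2, an ADP-ribose hydrolase gene, had 9, and GRIP1, PDE4D and RGS7 had 8 each. In PDE4D, a cAMP phosphodiesterase, 6 of 8 members lay in both shNTC replicates, and in ROBO1 6 of 7. In CHN2, a regulator of Rac, 0 of 7 did. CACNA2D3, ESRRG, an orphan nuclear receptor, and GABRB1 also had 7 each.

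In the gene lists, a gene has a member when 1 lay inside it or within 50 kb of it. The same member can thus count for several genes, and need not act on any of them. Members lay near 14 of 31 limb development genes and 9 of 20 melanocytic genes. They also lay near 11 of 24 undifferentiated and invasive genes and 11 of 25 angiogenesis factors and receptors. These shares of 44.0 to 45.8% stand beside 21.7% over all protein-coding genes, and no test was made. HOXD13-HA regions of any kind lay near 25 of 31, 13 of 20, 20 of 24 and 19 of 25 of these genes, in the same order. Over all protein-coding genes that share was 60.2%. Gene length was not taken into account. Lists of other cell types gave shares on both sides, with 5 of 12 keratinocyte genes, 5 of 12 endothelial genes, 1 of 12 fibroblast genes and 1 of 12 T cell genes. Of 15 housekeeping genes 1, YWHAZ, had a member, of 12 AP-1 factors 1, JUN, and of 8 antigen presentation genes outside the MHC 0.

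**Figure D5:**
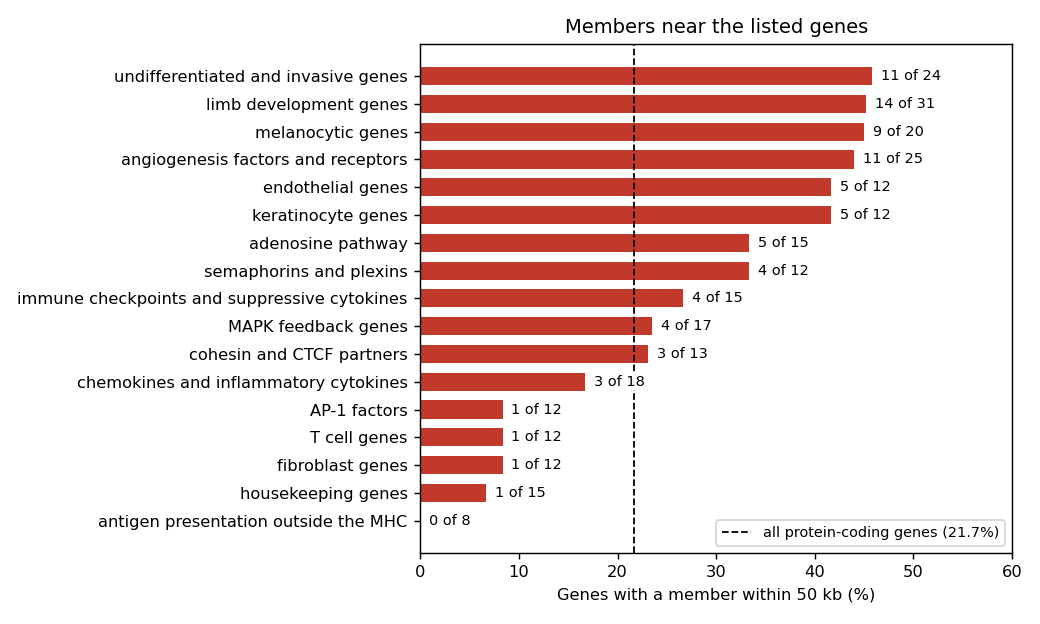
Share of the genes of each list with a member within 50 kb of the gene, in percent, with the number of genes beside each bar; the dashed line marks the 21.7% of all protein-coding genes. Limb, melanocytic, undifferentiated and angiogenesis genes lie between 44.0 and 45.8%, and keratinocyte and endothelial genes at 41.7%.

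Near limb development genes, the strongest member lay in RUNX2, a master regulator of bone formation, at chr6:45416761-45417101 with a HOXD13-HA fold of 11.4, and it was in no K27ac list of the hairpin, shNTC or other lines. BMP7, a bone morphogenetic protein (6.98), SOX9, a regulator of cartilage (6.41, 25164 bp away), and MEIS1, a cofactor of HOX proteins (6.30), followed. None of these members was in a hairpin or shNTC list. One member, chr2:176129397-176129735 with a fold of 5.32, lay within 50 kb of HOXD11, HOXD12 and HOXD13 itself, 33452 bp from HOXD13, and was acetylated in shH3 and both shNTC replicates. The strongest members of the 14 limb genes were 12 different regions.

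Near melanocytic genes the highest fold, 6.74, was at KIT, the stem cell factor receptor, where the member was open in all 3 other lines and in no shNTC list. The members at TYRP1, a melanin enzyme (5.29), and EDNRB, the endothelin receptor of melanoblasts (3.87), were acetylated in shH2 and both shNTC replicates and not in shH3. TRPM1 (3.88) had CTCF in both lines. In MITF, the master regulator of melanocytes, named after its values were seen, a member with a fold of 2.89 was in both hairpin and both shNTC lists. Of the 9 melanocytic genes, 5 had a member with CTCF and 4 a member in both shNTC replicates. Among undifferentiated and invasive genes, a member 37837 bp from TNC, a matrix protein, had a fold of 6.95. That 22518 bp from EGFR, a growth factor receptor, had 5.33, and that in ROR2, a WNT5A receptor, 5.32. Of these, the member at EGFR was acetylated in shH3 and both shNTC replicates.

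Among angiogenesis genes the highest folds were 9.16 near ANGPT2 and 7.92 in ANGPT1, the ligands of the TEK receptor, followed by 4.56 in THBS1, an inhibitor of angiogenesis, and 4.30 in EFNB2. The member at ANGPT1 was in shH3 and both shNTC lists, and that at THBS1 in shH3. Near KDR, the main VEGF receptor, also named after its values were seen, a member 44327 bp away was in both hairpin lists, both shNTC lists and open in all 3 other lines. Of the 11 angiogenesis genes, 5 had a member in both shNTC replicates and 3 one with CTCF. In the adenosine pathway 5 of 15 genes had a member, and each strongest member lay outside the gene. Those of the receptors ADORA2A (6.74), ADORA3 (6.44) and ADORA2B (4.17) were 20354, 37926 and 15164 bp away. Those of the peptidase DPP4 (4.04) and of ENPP1 (3.57) were 28450 and 14790 bp away. The member counted for ADORA3 covered the whole promoter window of RAP1A. The one at ADORA2B was acetylated in shH2 and both shNTC replicates. Semaphorin and plexin genes gave 4 of 12, led by SEMA3A (6.34) and SEMA3C (4.81), which had 5 and 4 members each and K27ac in both shNTC replicates at the strongest one.

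Of 15 checkpoint and suppressive cytokine genes 4 had a member, at TGFB2 (8.16), IDO1 (4.58), NECTIN2 (4.35) and IL10 (3.29), none in a hairpin or shNTC list. The member at TGFB2 lay inside the gene, and those at IDO1, NECTIN2 and IL10 lay 44199, 37944 and 31930 bp away. Of 18 chemokine and inflammatory cytokine genes 3 had one, CX3CL1 (4.93), CXCL16 (3.77) and IL1A (2.51), and those at CX3CL1 and IL1A were in shH3 and both shNTC replicates. MAPK feedback genes gave 4 of 17, SPRY1, an inhibitor of receptor signalling (11.0), EPHA4 (7.01), ETV5 (3.75) and ETV1 (1.78). The members at SPRY1 and ETV5 lay 45734 and 24473 bp away. Cohesin and CTCF partners gave 3 of 13, SMC3 (8.66, 28760 bp away), CTCFL (2.77, 22316 bp away) and STAG1 (2.18). The member at ETV1, an ETS factor downstream of MAPK signalling, was in both hairpin lists, both shNTC lists and both CTCF lists, in spite of its fold of 1.78. The 3 members at cohesin partners were in no hairpin, shNTC or CTCF list.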

How the data were processed

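Each library was deposited as 1 list of enriched regions with summits on hg38. The tools named in the submitters' processing notes are MACS2, Bowtie2, SAMtools, deepTools and Trim Galore, and versions, settings and control libraries are not given in the sources used here. The labels' extract protocol describes RNA preparation only. The deposited columns are the caller's score, the fold enrichment at the summit (a ratio by the authors), and the authors' −log10 p and −log10 q. Folds and −log10 q were used only to describe, rank or filter regions within a list. Some lists hold regions on alternative contigs, which were left out, so alignment or later filtering may have differed between libraries.

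Overlap meant at least 1 bp. Shares carry 95% Wilson intervals, which cover counting error only. No p-value was computed, since only shNTC had 2 replicates, and the labels do not say whether these were separate cultures. Genes were those of the RefSeq table (GRCh38.p14). Distances in bp run from the nearer edge of a region to the gene, while gene positions and the counts within 50 kb used its midpoint. Overlap functions were tested on simulated intervals. Python 3.11.15, numpy 2.4.6, pandas 2.3.3 and scipy 1.17.1 were used. The regions, gene lists and rules for naming regions (the 10 highest by a fixed value per group, up to 4 genes per list) were chosen with earlier results of these data known. MITF, KDR, ENPP1 and the member near HOXD11, HOXD12 and HOXD13 were named beyond the 4 genes per list. Alternatives were overlap of the summit or of 50% of the region, a −log10 q of at least 5, K27ac at least 1 kb away, K27ac lists of equal length, other gene distances and single shNTC replicates.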

Additional observations from a re-analysis of the deposited data

How the results depend on the processing

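No paired analysis was possible because the compared lists carry no shared replicate numbers and no result comes from a test. The number of members stayed within 1.5 times of 5613 under the summit rule (6362), coverage of 50% (6015), a −log10 q of at least 5 (3945) and K27ac at least 1 kb away (4236). Other shares and differences below are those outside the interval of the value reported.

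The share of members in both shNTC replicates was 29.2% with the summit, 30.6% with 50% coverage, 29.6% at −log10 q of at least 5, 22.8% with K27ac at least 1 kb away and 19.8% with K27ac lists of equal length, members chosen as before. With 1 replicate alone it was 36.2 to 39.2%. The share in a hairpin list among these was 67.4% with the summit, 65.7% at −log10 q of at least 5, 59.7% with K27ac at least 1 kb away and 77.6% with equal lengths, and 63.9 to 65.9% with 1 replicate. CTCF in both lines was 7.48% with 50% coverage, 6.16% at −log10 q of at least 5 and 7.29% with K27ac at least 1 kb away. Openness and K27ac in another line stood at 24.2% at −log10 q of at least 5, 22.3% with K27ac at least 1 kb away and 26.7% with equal lengths. Near gene ends lay 4.56% with K27ac at least 1 kb away, 3.74% within 1 kb and 9.30% within 5 kb. The count of genes with a member has no interval. It was 2361 at 10 kb, not within 1.5 times of 4331, and 6440 at 100 kb, within it.

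In ATAC regions without K27ac, those with HOXD13-HA minus those without differed in CTCF by -16.8 points, and by -19.0 points at −log10 q of at least 5. In shNTC K27ac the difference was 16.2 points, with 12.1 points at −log10 q of at least 5, 13.8 points with K27ac at least 1 kb away and 8.36 points with equal lengths. These ATAC alternatives, and the equal lengths for the hairpin share and for the other lines, were chosen after seeing the data. With K27ac at least 1 kb away, 22.8% of members were in both shNTC replicates, against 32.2% of the members as chosen. The 24.9% of all HOXD13-HA regions includes regions acetylated in A375-GFP at any distance, so it is no like background for the 22.8%. Near gene ends the share was 4.56%, against 5.54% of the members as chosen, which was close to the 5.51% of all HOXD13-HA regions. The depth of the libraries is unknown, so it could not be separated from list length, and the cause of these shifts was not tested.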
